A study of Mus musculus with 8 samples.

Results

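The stefin A genes of the mouse form a cluster on chromosome 16, and 6 of them were followed here in single cells of colon tumours: Stfa1, Stfa2, Stfa3, Stfa2l1, BC117090 and BC100530. They are 6 of the 20275 gene symbols in the tables and were found by symbol. The family was chosen by the measured levels of Stfa2 and BC117090, which differ between the genotypes in neutrophil wells, so every genotype value of the members in those wells is a description and has no test. Cells had been sorted 1 per well into 384-well plates and their 3′ transcript ends counted with unique molecular identifiers (SORT-seq). There were 8 plates, each from a different mouse, with 4 FibCtrl and 4 FibΔZeb1 plates and 3072 wells in all.

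All mice carried Zeb1 fl/fl, both sexes were used, and tumours grew from colon tumour organoids grafted into the caecum. Both groups received a tamoxifen diet. FibΔZeb1 mice carried a tamoxifen-inducible Cre that acts in fibroblasts, named as a Col1a1Cre-ERT2 transgene in the labels and as a Col1a2-CreERT2 knock-in allele in the methods of the study. FibCtrl mice were age-matched littermates without Cre, and ages are not given in the sources used here. The neutrophils of FibΔZeb1 mice were therefore not the cells targeted for Zeb1 deletion. In fibroblast wells Zeb1 was at 0 to 77.6 CPM (counts per 1000000 cell transcripts of the class on the plate) on FibCtrl plates and at 24.0 to 43.3 CPM on FibΔZeb1 plates, so the groups overlapped. Whether 3′ counts fall in the deleted stretch is not given in the sources used here.

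Stefins are small cytosolic inhibitors that sit in the active site of papain-like cysteine proteases such as the cathepsins B, H, L and S. In humans stefin A is made from a single gene, whereas the mouse carries a cluster of tandem copies. Some of these copies are known as transcripts of neutrophils and their bone marrow precursors. Neutrophils load their granules in steps as they mature, and Ngp, Camp and Ltf encode proteins of the secondary granules made before release from the marrow.

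The cluster spanned 298.6 kb on chromosome 16, from base 36156811 to base 36455392 of GRCm38, with coordinates taken from GENCODE M21. Stfa2l1 (36156811 to 36161953) and Stfa1 (36276951 to 36285373) lay on the forward strand. BC117090 (36321665 to 36334332), BC100530 (36359382 to 36367748), Stfa2 (36403992 to 36408457) and Stfa3 (36450537 to 36455392) lay on the reverse strand. Each member is protein-coding and had 3 exons. Gm5483 (36184212 to 36188111, forward strand), another stefin A gene between Stfa2l1 and Stfa1, was not a member and is given beside them because its pattern came out most like theirs. The antisense gene Gm15845 overlaps BC100530 on the opposite strand, and no source used here says if the counting took account of strand.

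**Figure D1:**
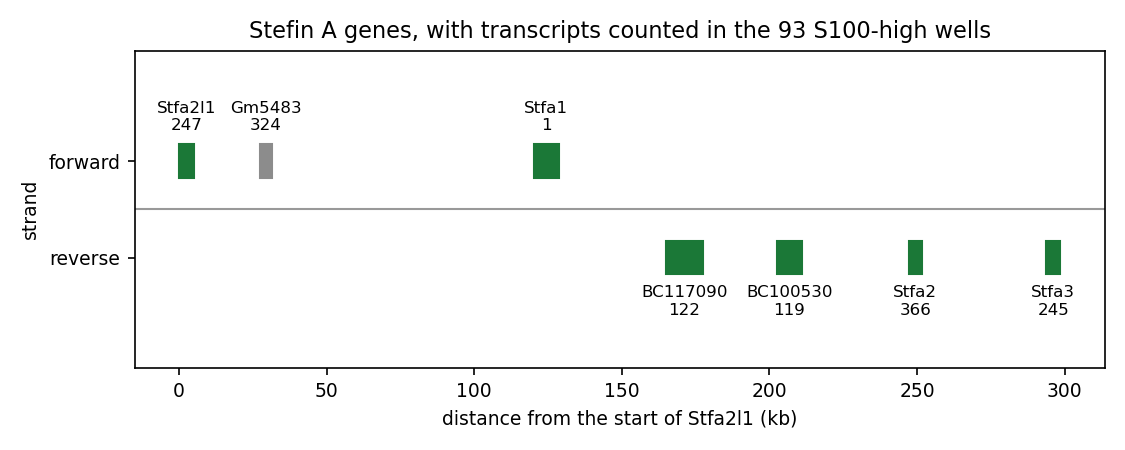
Map of the stefin A genes, with distance from the start of Stfa2l1 (kb) on the x axis and the strand on the y axis. Green boxes are the 6 members, the grey box is Gm5483, and the number under or over each name is its transcripts in the 93 neutrophil wells with high S100a8 and S100a9. The 2 ends of the cluster, Stfa2l1 and Stfa3, had 247 and 245, and Stfa1 between them had 1.

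The members are so alike that it matters which stretches tell them apart. The last 60 coding bases of each gene, which end at the stop codon and lie near the counted 3′ end, are shown for that reason, from the GENCODE M21 transcripts and 5′ to 3′. Capitals mark the 21 positions at which the 7 genes are not all the same.
Stfa1: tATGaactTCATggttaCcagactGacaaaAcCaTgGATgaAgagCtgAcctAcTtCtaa
Stfa2: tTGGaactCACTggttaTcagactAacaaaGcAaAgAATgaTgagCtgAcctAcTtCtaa
Stfa2l1: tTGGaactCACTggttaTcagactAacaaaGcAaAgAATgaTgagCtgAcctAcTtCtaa
Stfa3: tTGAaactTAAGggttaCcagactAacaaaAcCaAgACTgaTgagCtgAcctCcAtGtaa
BC117090: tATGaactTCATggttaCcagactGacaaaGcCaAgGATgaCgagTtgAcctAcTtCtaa
BC100530: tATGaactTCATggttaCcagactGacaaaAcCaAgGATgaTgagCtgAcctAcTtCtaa
Gm5483: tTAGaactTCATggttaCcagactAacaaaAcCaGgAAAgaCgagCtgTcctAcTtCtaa

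Stfa2 and Stfa2l1 had the same letters over these 60 bases, and their coding sequences of 312 bases each were 96.5% identical. BC117090 (291 coding bases) and BC100530 (294) formed a second close pair at 95.9%. Stfa3 stood further off, at 81.1% to Stfa2 and 81.7% to Stfa2l1. Over the last 400 bases of each transcript, 12.3% of all 60-base stretches of Stfa2 and of Stfa2l1 were shared with each other, and 27.7% of those of BC117090 and 26.1% of those of BC100530 were shared with another gene of the 7. For Stfa1 it was 21.7%, shared with BC100530 and BC117090. Stfa3 and Gm5483 shared no stretch of that length with another gene of the 7. The length of 60 bases was a choice, since the read length and the treatment of reads that match several genes are not given in the sources used here. The split of reads within each close pair, and between Stfa1 and the pair of BC117090 and BC100530, is therefore uncertain. The sum of the 6 members is less exposed to such splits among the 7 genes. Other genes of the locus, such as Gm5416 and 2010005H15Rik, and its pseudogenes were not compared.

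The upstream sequences shared a stretch as well. RefSeq promoters (GRCm38.p6) were held for 5 of the 6 members, all but BC117090, and for Gm5483. The RefSeq starts of some genes differ from the GENCODE starts given above, so that the windows of Stfa1, Stfa2 and BC100530 lie upstream of the RefSeq start but within the GENCODE gene. The windows below are the 30 bases that end with the longest run common to all 6 promoters, in capitals, written 5′ to 3′ on the strand of the gene. They are shown because several members were found together in the wells richest in members, although many wells with a member held Stfa2l1 alone.
Stfa1, chr16:36277097-36277126, forward strand: gaggaggagctttcggatACCTTTAAAACC
Stfa2, chr16:36408384-36408413, reverse strand: gaggaggagcttacagaaACCTTTAAAACC
Stfa3, chr16:36455415-36455444, reverse strand: aggaggagcttacagataACCTTTAAAACC
Stfa2l1, chr16:36156757-36156786, forward strand: gaggaggagtttacagaaACCTTTAAAACC
BC100530, chr16:36367571-36367600, reverse strand: gaggaggagtttacagatACCTTTAAAACC
Gm5483, chr16:36184162-36184191, forward strand: gaggaggagtttacagatACCTTTAAAACC

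The run of 12 bases began 32 to 36 bases before the RefSeq start of Stfa1, Stfa2, Stfa3, Stfa2l1 and Gm5483, and 12 bases before that of BC100530. On either strand it was found in 11 of 32851 promoters (0.0335%), counted over the 250 bases before each start. The other 5 genes were Csta3, Cstdc3, Gm7260, Cdc42ep4 and Gm39539. The C/EBP motif TTGCNNAA was found in the 250 bases before Stfa1 and BC100530, against 9.56% of all promoters on both strands. The PU.1 motif GAGGAAG was found before Stfa1, BC100530 and Gm5483, against 10.6%, and TATAAA before none of the 6, against 12.4%. These matches describe letters in a window and say nothing about binding.

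To find the cells that carry the members, each kept well was given the class whose marker genes scored highest, with no member among the markers. Wells entered if they had 500 or more cell transcripts, which leave out spike-ins and mitochondrial genes, and if their mitochondrial share did not exceed the median of the plate by over 3 median absolute deviations. This left 1831 wells, and plates held 981881 to 5905188 cell transcripts. Of the kept wells, 246 scored highest for neutrophil markers, and 93 of these had S100a8 and S100a9 at 2% or more of their transcripts together. These 93 are called S100-high neutrophil wells, and no well of another class reached 2%. They carried the neutrophil markers at 87166 CPM in sum, against 334 CPM for phagocyte, 2409 CPM for fibroblast and 611 CPM for epithelial markers. The FibCtrl plates held 1, 16, 15 and 14 such wells, and the FibΔZeb1 plates 9, 10, 20 and 8, in the order of replicates 1 to 4. By the run name in the file names, plates of replicates 1 and 2 came from 1 run and those of replicates 3 and 4 from another. These runs are called flow cells 1 and 2 here, a reading of the file names only. All plates used the same 384 well barcodes by design.

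The members were transcripts of neutrophil wells. Of 1202 member transcripts in all wells, 1101 (91.6%) were in the 93 S100-high neutrophil wells and 45 (3.74%) in the 153 neutrophil-score wells with less S100a8 and S100a9. The 130 phagocyte wells held 2, the 489 epithelial wells 17, the 679 fibroblast wells 24, and the T cell and B cell wells 1 each. Pooled over wells, the 6 members together came to 4910 CPM in S100-high neutrophil wells, 131 CPM in the low-S100 wells, 1.34 CPM in phagocyte, 1.26 CPM in epithelial and 2.90 CPM in fibroblast wells.

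Per plate, the 6 members were higher in S100-high neutrophil wells than in each other class on every plate compared. Against lymphocyte wells the mean difference in log2(CPM + 10) was 7.29 ± 1.80 (SD, n = 7 plates), against epithelial wells 7.27 ± 1.84 and against fibroblast wells 7.06 ± 1.75. For each of these the exact two-sided sign-flip permutation test over plates gave p = 0.0156 (n = 7), the smallest it can give, and an adjusted p of 0.0208 over the 4 classes. Against phagocyte wells the difference was 7.39 ± 2.26 over 5 plates, and the exact permutation p of 0.0625 (n = 5, adjusted 0.0625) is likewise the smallest the design allows. Plates with at least 5 wells of both classes entered. Part of these differences came from the 3 wells richest in members, which are described further on. Without them, an alternative added in view of the data, the differences were 5.97 against lymphocyte, 5.94 against epithelial and 5.73 against fibroblast wells. Against phagocyte wells it was 5.53, and S100-high wells were again higher on every plate compared. The family was chosen through Stfa2 and BC117090 in neutrophil wells, which needed them to be found there. These tests reuse those wells, so their p-values are not independent of the choice. The lymphocyte, epithelial and fibroblast calls need all 7 plates or 6 of them: with a minimum of 10 wells per class (3 or 5 plates) the differences were 8.92, 8.02 and 7.77, and the test could not reach the threshold.

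**Figure D2:**
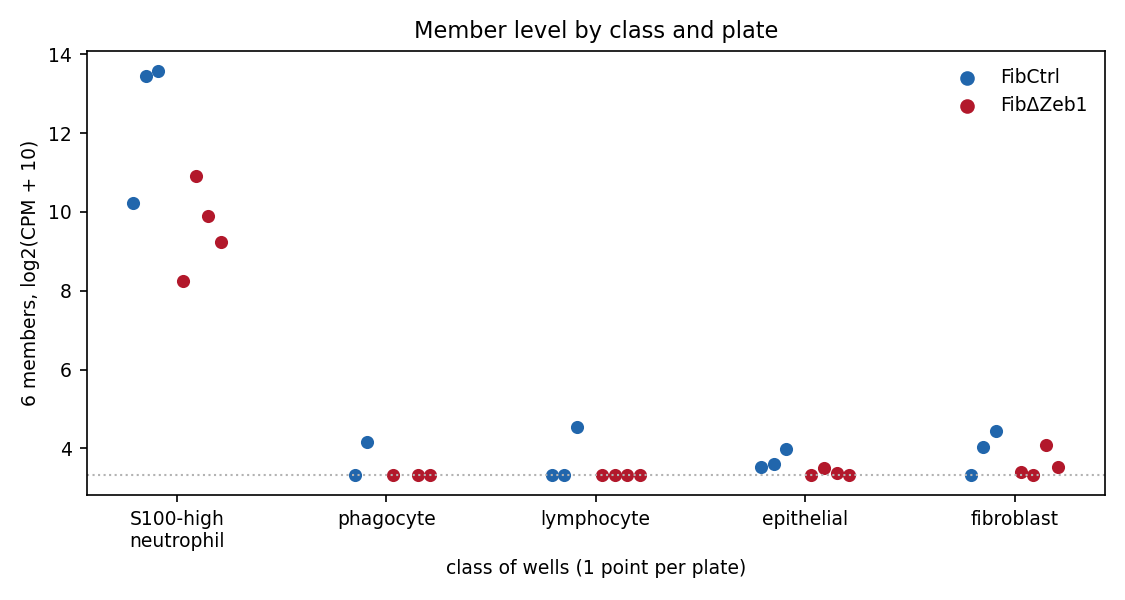
Level of the 6 members together by class and plate, as log2(CPM + 10) on the y axis, with 1 point per plate, FibCtrl in blue and FibΔZeb1 in red. The dotted line is the value of 0 transcripts, at which most phagocyte and lymphocyte points lie. In the S100-high neutrophil wells all 7 plates lie above every point of the other classes.

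Few wells of other classes held a member, and of those that did all but 1 held a single transcript. The exception was a fibroblast-score well of FibΔZeb1 plate 3 with 6. A member was found in 39 of the 93 S100-high wells (41.9%), in 3.48% of epithelial, 2.80% of fibroblast and 1.54% of phagocyte wells, although the median depth was 2149 transcripts in S100-high, 18862 in epithelial, 3311 in fibroblast and 10561 in phagocyte wells. With every well thinned to 500 transcripts, the shares were 25.8%, 0.409%, 0.884% and 0%. FibCtrl plate 4, which had 2 of the 3 wells richest in members (described further on), held 10 of the 17 epithelial and 11 of the 24 fibroblast transcripts, and FibCtrl plate 3, with the other, held 3 and 4. FibΔZeb1 plate 3, which had none of these wells, held 1 and 7, with 6 of the 7 in the well just named. The part of RNA carried between wells was not tested.

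Phagocytes, the other main myeloid class, are the closest comparison. Across genes, edgeR's quasi-likelihood test with the plate as a block, over the 5 plates with 5 or more wells of both classes, called 741 of 1588 genes (46.7%) at an adjusted p under 0.05, with 340 (21.4%) higher and 401 lower in S100-high neutrophil wells. Only Stfa2l1 of the 6 members passed the filter on low counts. It was at 0 in all phagocyte wells and passed through its level in neutrophil wells, so its call is not read as support and its values are given instead. Pooled over the 5 plates it was at 1172 CPM in neutrophil wells, which makes it at least 545-fold higher when set against a floor of 3 transcripts over all phagocyte wells of those plates (2.15 CPM). By the same floor Stfa3 was at least 717-fold, BC100530 at least 329-fold and BC117090 at least 323-fold higher, without a test. Most of these transcripts were in the 3 wells described further on. Without those wells Stfa2l1 was at 474 CPM and at least 220-fold higher, BC100530 was at least 17.2-fold and BC117090 at least 13.8-fold higher, and Stfa3 was left with 1 transcript. The only phagocyte transcripts of a member were 2 of Stfa2 on FibCtrl plate 4.

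Among the members, Stfa2l1 was the most widely found and the others were concentrated. Stfa2l1, the close copy of Stfa2, had a transcript in 34 of the 93 S100-high wells and on 7 plates. Stfa2 was found in 11 wells, BC117090 and BC100530 in 12 each, Stfa3 in 4 and Stfa1 in 1. Their transcripts in these wells numbered 247 for Stfa2l1, 366 for Stfa2, 245 for Stfa3, 122 for BC117090, 119 for BC100530 and 1 for Stfa1. Since counting was by 3′ end, transcripts were not divided by gene length.

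Stfa2 was at 0, 103, 2655 and 5814 CPM on FibCtrl plates 1 to 4, and at 0, 451, 24.8 and 148 CPM on FibΔZeb1 plates 1 to 4. Stfa2l1 was at 0, 901, 2040 and 1467 CPM on the FibCtrl plates, and at 294, 1025, 792 and 369 CPM on the FibΔZeb1 plates. For both genes FibCtrl plates 3 and 4 were highest, while FibCtrl plate 2 lay within the range of the FibΔZeb1 plates, so the groups overlapped.

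Stfa3 was at 0, 0, 2707 and 3273 CPM on FibCtrl plates and at 24.8 CPM on FibΔZeb1 plate 3 alone of the FibΔZeb1 plates, where that value is 1 transcript. BC117090 was at 0, 77.1, 1763 and 913 CPM on FibCtrl plates and at 0, 328, 49.5 and 0 CPM on FibΔZeb1 plates. BC100530 was at 0, 77.1, 1965 and 744 CPM on FibCtrl plates and at 0, 123, 49.5 and 73.9 CPM on FibΔZeb1 plates. These genes too were high on FibCtrl plates 3 and 4 only. Stfa1 had 1 transcript, on FibCtrl plate 2 (25.7 CPM).

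The zeros allow different limits. FibCtrl plate 1 had a single S100-high well of 1428 transcripts, where 0 allows up to 2101 CPM (3 transcripts). This well entered no comparison over plates, only counts pooled over wells. On the other plates with a 0 the limit was 71.9 to 222 CPM. For the 6 members together the exact 95% Poisson interval on FibΔZeb1 plate 4, the plate with the fewest transcripts of the 7, ran from 255 to 1165 CPM around 591 CPM. The 8 member transcripts behind that value were all in 1 well. Such intervals and floors cover counting error only.

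**Figure D3:**
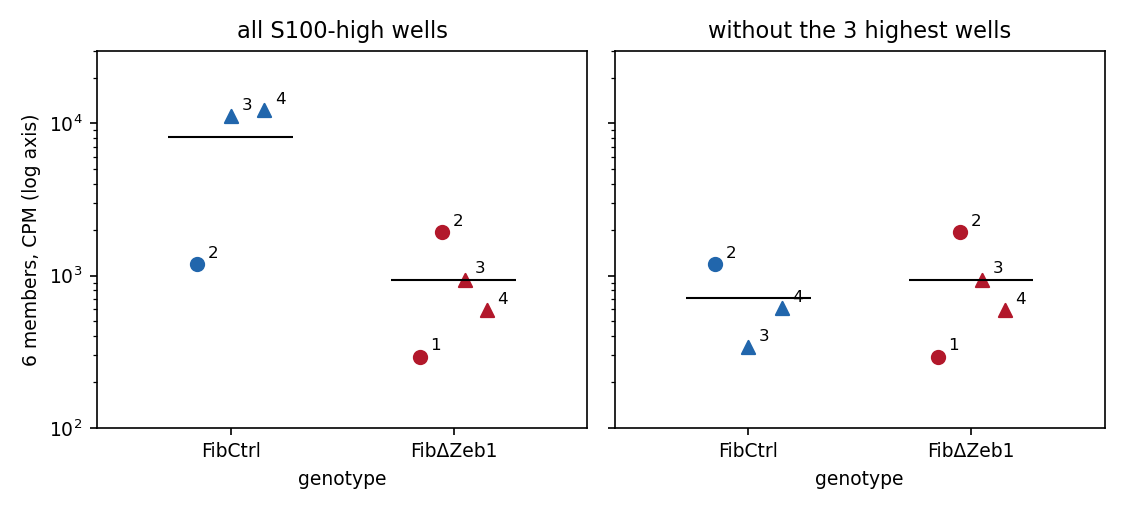
CPM of the 6 members together in S100-high neutrophil wells (log axis) by genotype, with all wells on the left and without the 3 wells that held most member transcripts on the right. Each point is a plate with 5 or more such wells, numbered by replicate, with circles for flow cell 1 and triangles for flow cell 2, and lines are group means. FibCtrl plates 3 and 4 lie at 11130 and 12211 CPM on the left and at 337 and 613 CPM on the right.

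Seen well by well, 3 wells carried most of the signal. They were ranked by their member transcripts, so what follows on them is a description with no test. They held 928 of the 1202 member transcripts (77.2%), with 436 in a well of FibCtrl plate 3 and with 294 and 199 in 2 wells of FibCtrl plate 4. Members made up 4.19%, 3.60% and 3.43% of the transcripts of these wells. The remaining 90 S100-high wells held 173, with a median of 0 and at most 25 in a well (1.08% of its transcripts). Only 5 wells had 20 or more, namely these 3, a well of FibΔZeb1 plate 2 with 25 and a well of FibCtrl plate 2 with 20.

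**Figure D4:**
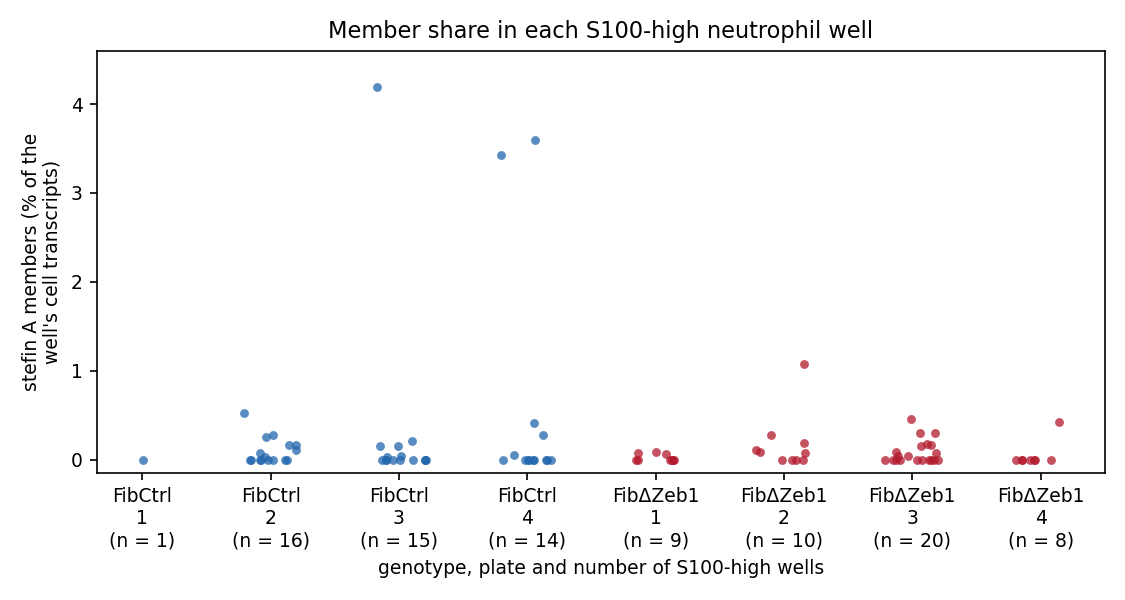
Share of a well's cell transcripts that came from the 6 members (%), for each of the 93 S100-high neutrophil wells, by plate, with points spread sideways at random for display. The 3 highest wells lie at 4.19%, 3.60% and 3.43% on FibCtrl plates 3 and 4, and the remaining 90 at 0% to 1.08%.

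The 3 wells did not share 1 pattern. Stfa1 had no transcript in any of them. In the well of FibCtrl plate 3, Stfa2 had 104 transcripts, Stfa3 108, Stfa2l1 77, BC117090 70 and BC100530 77, so the members apart from Stfa1 were near-even. Gm5483, not a member, had 128 there. The higher well of FibCtrl plate 4 had 133 of Stfa2 and 111 of Stfa3, but 7 of Stfa2l1, 25 of BC117090 and 17 of BC100530. The other well of that plate had 108 of Stfa2, 25 of Stfa3, 39 of Stfa2l1, 12 of BC117090 and 14 of BC100530. Stfa2 was high in all 3, and Stfa3 and Stfa2l1 traded places between the wells of FibCtrl plate 4. Over the 93 wells, the 3 held 99.6% of the Stfa3, 94.3% of the Stfa2, 90.8% of the BC100530 and 87.7% of the BC117090 transcripts, against 49.8% of Stfa2l1 and 62.7% of Gm5483.

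Secondary granule genes were most abundant in the highest of the 3 wells and fell away in the others. The well of FibCtrl plate 3 held 177 transcripts of Ngp, 347 of Camp, which encodes cathelicidin, and 207 of Ltf, which encodes lactoferrin, with 259 of Lcn2. The higher well of FibCtrl plate 4 held 55 of Ngp, 3 of Camp and 7 of Ltf, with 372 of Retnlg and 37 of the collagenase gene Mmp8. The other held 3 of Ngp and none of Camp or Ltf. Together the 3 wells held 97.5% of the Ngp, 98.9% of the Camp and 95.1% of the Ltf transcripts of all S100-high wells. Most of these were in the well of FibCtrl plate 3, so the shares do not describe each of the 3. The primary granule genes Elane, Mpo and Prtn3 and the regulator Cebpe, which mark earlier precursors, were at 0 in all 3. The other 90 wells held only 1, 1, 4 and 1 of their transcripts, too few to tell the 3 wells apart. Ccl3 and Ccl4, chemokine genes of activated neutrophils, were at 0 in the 3 wells as well. The other 90 wells held 642 and 331 of their transcripts, spread over 38 and 27 wells. The rest of the activation list was mixed. Csf1, Il1a and Vegfa were at 0 in the 3 wells, and Tnf and Cd274 had 1 transcript each. Cxcl2 was in all 3 wells but lower (4841 against 18095 CPM), as were Cstb and Ctsb, and Hilpda was higher (370 against 260 CPM). Cxcr2, a neutrophil marker, had 9 transcripts in each well of FibCtrl plate 4 and 0 in that of FibCtrl plate 3.

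**Figure D5:**
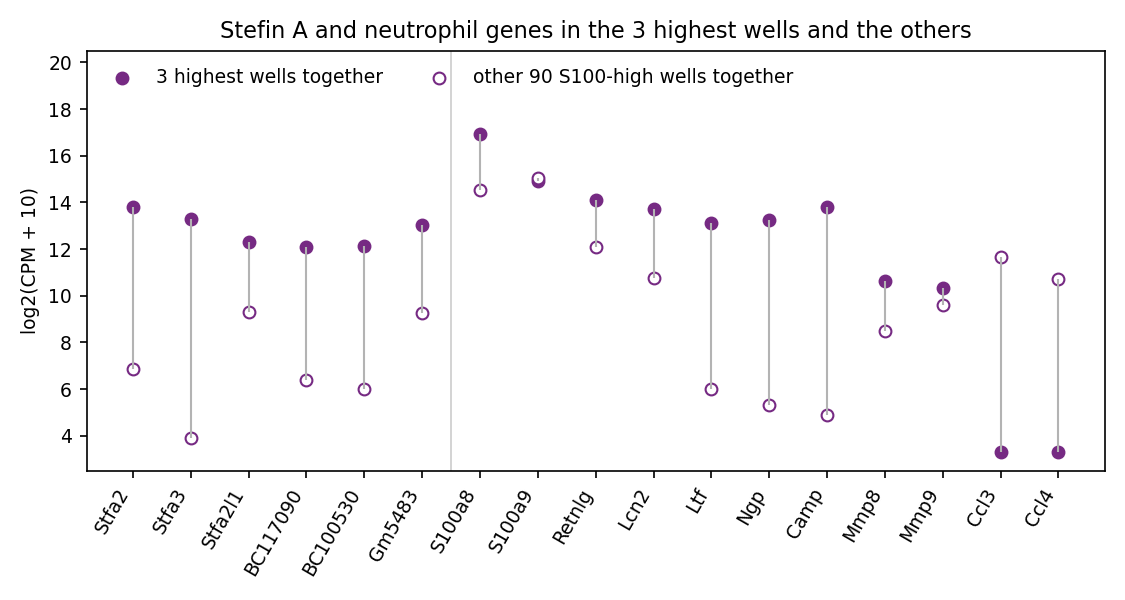
Level of each gene as log2(CPM + 10), summed over the 3 wells with most member transcripts (filled) and over the remaining 90 S100-high neutrophil wells (open). Stfa2, Stfa3, Ngp, Camp and Ltf are far higher in the sum of the 3 wells, S100a9 is near-even, and Ccl3 and Ccl4 are at 0 in the 3 wells. Most Ngp, Camp and Ltf transcripts of the 3 wells are from the well of FibCtrl plate 3.

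The 3 wells were also deep and rich in S100a8. They held 10396, 8166 and 5791 cell transcripts, against a median of 2114 and a range of 562 to 8043 in the other 90. S100a8 and S100a9 made up 18.8%, 15.1% and 10.9% of them, against a median of 5.08%, and S100a8 outnumbered S100a9 by 2.18, 50.4 and 4.95 times, against a median ratio of 0.669 and at most 4.18 in the other 90. Their mitochondrial share was 4.01% to 5.10%, against a median of 7.61%. Markers of other classes were low in them, with 0.048% to 0.190% for the fibroblast list, 0% to 0.0345% for the phagocyte list and none for the B cell, mast and endothelial lists. The wells at the same position on the other 7 plates held 10 member transcripts in all, 2 and 8 on FibΔZeb1 plate 4. The 8 were in the only S100-high well of that plate with a member, so its level of 591 CPM rests on that well. It shared its position and flow cell with the lower of the 2 wells of FibCtrl plate 4. Whether transcripts were carried between plates was not tested. The part of depth in the member counts of these wells was not tested.

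Without these wells, members and secondary granule genes still met in some cells. Of the 12 S100-high wells with Ngp, Camp or Ltf, 8 held a member, and of the 81 without, 31 did. Leaving out the 3 highest wells, 5 of 9 such wells held a member, with at most 10 transcripts. This overlap was not tested.

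Between the genotypes, the share of S100-high neutrophil wells with a member was close to even, while the mean level was higher in FibCtrl through few wells. Pooled over the wells of all mice, a member was found in 19 of 46 FibCtrl wells (41.3%) and in 20 of 47 FibΔZeb1 wells (42.6%). After thinning to 500 transcripts it was 26.1% and 25.5%. The FibCtrl wells include the single one of FibCtrl plate 1, which held no member. By plate, a member was in 8 of 16, 6 of 15 and 5 of 14 wells for FibCtrl (replicates 2 to 4). For FibΔZeb1 (replicates 1 to 4) it was in 3 of 9, 6 of 10, 10 of 20 and 1 of 8. The exact 95% binomial intervals of all 7 plates overlapped, for example 24.7% to 75.3% for FibCtrl plate 2 and 0.316% to 52.7% for FibΔZeb1 plate 4.

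The level of the 6 members together was 1184, 11130 and 12211 CPM in FibCtrl replicates 2 to 4 and 294, 1926, 941 and 591 CPM in the 4 FibΔZeb1 plates. Over plates with 10 or more wells it averaged 8175 ± 6079 CPM in FibCtrl (SD, n = 3) and 1433 ± 697 CPM in FibΔZeb1 (n = 2), a difference of 6742 CPM. Without the 3 wells, likewise an alternative added in view of the data, FibCtrl plates 3 and 4 fell to 337 and 613 CPM, the FibCtrl mean to 711 ± 432 CPM, and the difference turned to -722 CPM. The direction between genotypes thus rested on 3 wells of 2 mice. Within flow cell 1, FibCtrl plate 2 at 1184 CPM lay between the FibΔZeb1 plates at 294 and 1926 CPM. Within flow cell 2, both FibCtrl plates lay above both FibΔZeb1 plates with the 3 wells, and below FibΔZeb1 plate 3 without them.

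Across genes, edgeR called 1 of 737 genes between genotypes in these wells (0.136%), with 23 at an unadjusted p under 0.05. That gene was BC018473, named after its value was seen, at 1142 CPM in FibCtrl and 0 in FibΔZeb1 (adjusted p = 0.00694 by edgeR). Of the 6 members 5 passed the filter and 0 were called. Their log2 changes, FibΔZeb1 minus FibCtrl, were -6.75 (SE 1.91) for Stfa3, which rests on 1 transcript in FibΔZeb1, -3.67 (SE 1.38) for Stfa2, -3.48 (SE 1.18) for BC100530, -2.38 (SE 1.11) for BC117090 and -0.67 (SE 0.52) for Stfa2l1, against a median of 0.03 over all genes tested. Members were among the genes called under other settings of the fit: Stfa3 with the flow cell as a term or without FibCtrl plate 2, and Stfa2, Stfa3 and BC100530 with no filter on low counts. The contrast chose the members, so nothing is read from these counts or calls. Without the 3 wells Stfa2l1 alone passed the filter, at 0.79 (SE 0.62).

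In phagocyte wells, which played no part in the choice of members, edgeR called 0 of 4498 genes (0%) between genotypes, with 226 at an unadjusted p under 0.05 and 4 called by DESeq2. None of the 6 members passed the filter there.

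Within the S100-high class, wells were split in each plate by activation and by granule genes, to ask which neutrophils carry the members. Wells with Ccl3 or Ccl4 after thinning to 500 transcripts were lower in the 6 members than wells without on 3 of 3 plates. The levels were 0 against 16510 CPM on FibCtrl plate 4, 323 against 2909 CPM on FibΔZeb1 plate 2 and 689 against 1043 CPM on FibΔZeb1 plate 3. The mean difference in log2(CPM + 10) was -4.80 ± 5.25 (SD, n = 3), and the exact permutation p of 0.25 (n = 3, adjusted 0.5) is the smallest 3 plates can give. Split without thinning, 2 plates could be compared, the difference was -2.24, and 1 of the 2 was higher in wells with Ccl3 or Ccl4. With all 246 neutrophil-score wells, an alternative added later in view of the data, the wells with Ccl3 or Ccl4 differed by -3.32, lower on 7 of 7 plates, with an exact permutation p of 0.0156 (n = 7, adjusted 0.0313). These wells include the low-S100 wells, which had more Ccl3 and fewer members than S100-high wells on each of those plates. The split thus cannot be told apart from the S100a8 and S100a9 level and does not bear on the S100-high class alone.

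For wells with and without granule transcripts (Mmp8, Mmp9, Ltf, Ngp, Camp or Lcn2) the difference was 1.77 ± 2.37 (SD, n = 3), higher on 2 of 3 plates (exact permutation p = 0.5, n = 3). The levels were 20041 against 936 CPM on FibCtrl plate 4, 1082 against 505 CPM on FibΔZeb1 plate 3 and 1132 against 1295 CPM on FibCtrl plate 2. Without the 3 highest wells the difference was -0.77, so its direction rested on them.

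The members followed the S100a8 and S100a9 level as well. In the low-S100 wells the 6 members were at 307, 23.0 and 66.8 CPM on FibCtrl plates 2 to 4 and at 70.1, 128, 129 and 241 CPM on FibΔZeb1 plates 1 to 4. Each value lay below that of the S100-high wells of the same plate, on 7 of 7 plates, which was not tested. Of the 153 low-S100 wells 22 held a member (14.4%, or 9.15% after thinning). Near the 2% limit, 6 of 20 wells between 2% and 3% held a member, with at most 12 transcripts, and 7 of 37 wells between 1% and 2%, with at most 8. Ccl3 was higher in the low-S100 than in the S100-high wells on each of those 7 plates, for example at 15528 against 7888 CPM on FibCtrl plate 2 and at 6941 against 1191 CPM on FibΔZeb1 plate 3.

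The genes whose level was most like that of the 6 members over 42 sums of class and plate, among 7662 genes, were Gm5483 (Pearson r = 0.99), 1100001G20Rik (0.96), S100a8 (0.95), Gm10872 (0.95), Retnlg (0.95), Trem3 (0.94), G0s2 (0.94) and S100a9 (0.94). S100a8, S100a9 and Retnlg helped to define the class, and the points share libraries, so r is a description. Gm5483 was at 1159, 3520 and 1878 CPM on FibCtrl plates 2 to 4 and at 126, 1764, 223 and 369 CPM on FibΔZeb1 plates 1 to 4. Against phagocytes it was at least 689-fold higher by the floor of 3 transcripts (pooled 1481 CPM, and 0 in phagocyte wells), and at least 114-fold without the 3 highest wells.

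Genes of the proteases that stefins inhibit were lower in S100-high neutrophil wells than in phagocytes. Of 10 papain-family cathepsin genes 6 were tested against phagocytes and all 6 were lower, with a median log2 difference of -3.38 against -0.19 over all genes tested. Ctss, a cathepsin of antigen-presenting cells, differed by -3.99 (SE 0.41), Ctsb by -2.04 (SE 0.32), Ctsl by -3.50 (SE 0.66) and Ctsh by -4.87 (SE 0.67). In the 3 highest wells Ctsb was at 287 CPM, against 1086 CPM in the other 90 wells. Ctss was at 0 in the 3, against 215 CPM. Ctsl and Ctsh were at 0 too, but at only 80.1 and 10.0 CPM in the other 90 wells, which is too low to tell apart at the depth of 3 wells.

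Other cystatins differed among themselves. Of 17 genes on a list of the stefin A locus and other cystatins, 3 were tested, with Gm5483 higher, Cst3, which encodes the secreted cystatin C, lower at -2.06 (SE 0.30), and Cstb, the stefin B gene, at -0.74 (SE 0.37, adjusted p = 0.0964 by edgeR). Cstb was at 129, 74.9 and 575 CPM in S100-high wells of FibCtrl plates 2 to 4 and at 336, 328, 322 and 443 CPM on FibΔZeb1 plates 1 to 4, so it did not follow the members across plates.

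Of 14 maturation and granule genes, 6 were tested and 5 were higher in S100-high neutrophil wells than in phagocyte wells: Retnlg, which helped to define the class, at 8.84 (SE 0.49), Lcn2 at 7.92 (SE 0.51), Mmp9 at 6.31 (SE 0.49), Cxcr2, also a marker, at 4.97 (SE 0.37) and Mmp8 at 4.75 (SE 0.61). Itgam was at 0.10 (SE 0.38). Of 12 activation genes 9 were tested, with Ccl3, Cxcl2 and Tnf higher at 1.18, 1.74 and 2.03 and Ctsb lower. Between genotypes in S100-high wells, 0 of the 3 cystatin, 1 cathepsin, 7 granule and 10 activation genes tested were called by edgeR.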

How the data were processed

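The deposited values were estimated counts: unique molecular identifier counts per gene and well, which the authors' pipeline had corrected for identifier collisions and not scaled to depth. Of these values 87.5% were whole. Per the methods of the study, reads (NextSeq 500) were aligned with bwa to the mouse transcriptome of GRCm38, and the submitters' processing notes also list Cell Ranger 2.1.1. The gate a well was sorted from was left unused, no doublet caller was run on wells that received 1 sorted cell, and each well's class came from marker genes (highest mean log2(1 + counts per 10000), at least 0.5, with at least 2 markers detected). Cell transcripts per plate ranged from 981881 to 5905188, and the intervals and floors cover counting error only.

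For each class and plate, well counts were added up and rounded, and genes were tested in R 4.3.3 by edgeR 4.0.16 (quasi-likelihood) with TMM scaling, its expression filter and Benjamini-Hochberg adjustment at 0.05, with plates of at least 10 wells between genotypes and at least 5 wells between classes. DESeq2 1.42.0 was an alternative. Levels of the 6 members together were compared over plates as log2(CPM + 10), which understates the change of low values, by exact two-sided sign-flip tests (Python 3.11.15, numpy 2.4.6, pandas 2.3.3, scipy 1.17.1). The fits were tested on simulated data. Genes named were the 6 members, the fixed lists and the 8 genes most like the members with at least 20 CPM on average. The members and lists were chosen with earlier results of these data known. The alternatives without the 3 highest wells, with no S100a8 and S100a9 minimum, and with the replicate block at a minimum of 5 wells were chosen after the data were seen. The promoters came from RefSeq and the coordinates from GENCODE M21.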

Additional observations from a re-analysis of the deposited data

Results flagged for a closer look

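In 3 of the 11 groups of 4 plates examined, a plate lay apart from the others by Dixon's criterion (0.829 for 4 plates). Where 3 of the 4 plates are at 0, any count on the remaining plate passes it. The usual chance rate of about 1 in 20 groups therefore does not hold for these counts. Stfa3 was at 24.8 CPM in the S100-high neutrophil wells of FibΔZeb1 plate 3 and at 0 on the other 3 FibΔZeb1 plates, a gap that is 1 transcript. BC117090 was at 328 CPM on FibΔZeb1 plate 2, against 0 to 49.5 CPM on the other 3 FibΔZeb1 plates. The 6 members together were at 13.3 CPM in the lymphocyte wells of FibCtrl plate 4, which is 2 transcripts, and at 0 in those of the other FibCtrl plates. Wells that the depth and mitochondrial filters dropped held 8 member transcripts in 5 of 1241 wells, 4 on FibΔZeb1 plate 1, 2 on FibCtrl plate 2 and 1 each on FibCtrl plates 3 and 4.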

How the results depend on the processing

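Of 142 alternative values, 122 were taken as unchanged, by a rule that differed between results. For the sign-flip tests it meant the same direction and side of the threshold. For gene counts it meant a count of similar size. For the genotype difference of the members it meant the same direction and a move of less than the pooled SD (4980 CPM). With the minimum of 10 wells per class, the difference in log2(CPM + 10) of the members was 8.92, 8.02 and 7.77 against lymphocyte, epithelial and fibroblast wells, and with an S100a8 and S100a9 share of 5% it was 8.50, 8.47 and 8.22. Both leave at most 5 plates, too few to pass the threshold. With no S100a8 and S100a9 minimum, which takes in the low-S100 wells, the Ccl3 and Ccl4 difference was -3.32 and passed it. Without thinning it was -2.24, lower on 1 of 2 plates. Without the 3 highest wells the granule difference reversed to -0.77 and the genotype difference to -722 CPM. Leaving out each plate in turn gave 6.71 to 8.005 against phagocyte, 6.82 to 7.69 against lymphocyte, 6.84 to 7.66 against epithelial and 6.67 to 7.42 against fibroblast wells, 0.45 to 2.74 for the granule split, -6.91 to -1.86 for the Ccl3 and Ccl4 split, and 4724 to 10237 CPM for the genotype difference. The 1 gene called between genotypes in neutrophil wells became 12 with no filter on low counts, 2 with the flow cell as a term, and 0 to 3 with a plate left out, and these calls included Stfa3 under each of those settings (with FibCtrl plate 2 as the plate left out) and Stfa2 and BC100530 with no filter. The 0 genes in phagocyte wells became 4 with DESeq2, 58 with no filter and 0 to 6 with a plate left out. The 741 genes between neutrophil and phagocyte wells became 1525 with no filter (276 higher, 1249 lower, and a median log2 of -1.06) and 627 to 851 with a plate left out. The causes of these changes were not tested. Whether the replicate numbers pair the plates cannot be told from so few plates. Same-numbered plates correlated at 0.15, -0.05 and 0.21 in neutrophil wells and at 0.05, -0.06 and 0.03 in phagocyte wells. Plates of unlike number correlated at -0.31 to 0.18 and at -0.13 to 0.13. In neutrophil wells FibCtrl plates 2 and 4 correlated best with their own number and FibCtrl plate 3 did not. In phagocyte wells no FibCtrl plate did. With the replicate block, 0 genes were called in neutrophil wells (1 with a minimum of 5 wells per plate) and 0 in phagocyte wells. Too few plates were left to run the minimum of 10 wells per side and the 5% share for either split, the granule split without thinning, the Ccl3 and Ccl4 split at a minimum of 1000 transcripts, and the 5% share for both genotype results. Depth limits single genes: FibΔZeb1 plate 4 held 13534 transcripts in 8 S100-high wells.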
